A study of Mus musculus with 9 samples.

Results

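The genes described here encode the signalling chains of the B-cell receptor and proteins that work beside it: Cd79a, Cd79b, Cd81, Ighm, Fcrla, Bank1 and Pik3ap1. All probes whose gene name in the array files is one of these symbols or an older alias were taken, which gave 11 of the 41174 probes on the array for 7 of its 21164 gene names; all 11 carried the current symbol. Expression was measured in mouse pro-B cells transformed by the Abelson virus (A-MuLV), of the C57Bl/6 background and the genotype Ebf1fl/fl;RERTCre, in which 4-hydroxytamoxifen activates a Cre recombinase that deletes the floxed Ebf1 gene. EBF1ΔC cells had received a pmys retroviral vector encoding EBF1 without its C-terminal domain together with GFP, EBF1wt cells the same vector with full-length EBF1, and Mock cells neither form. All 3 groups carried the floxed allele and were treated with 2 µM 4-hydroxytamoxifen. The 2 EBF1 groups received tamoxifen 24 h after the virus, were sorted as GFP-positive cells 5 days after treatment and were used more than 2 weeks later, whereas Mock cells were harvested 4 days after tamoxifen, ahead of cell death. The model is therefore a transformed line with EBF1 driven by a viral vector, and each group had 3 arrays; that number limits the precision. Since no label says if replicates came from separate cultures, p-values here describe the spread between these samples alone, which may be technical.

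The B-cell receptor is a membrane immunoglobulin whose heavy chain, mu in the first B-lineage cells, cannot signal on its own. It pairs with the CD79A and CD79B chains, whose cytoplasmic tails are phosphorylated by SRC-family kinases and recruit SYK. In pro-B and pre-B cells the mu chain is joined by the surrogate light chain in place of a light chain, forming the pre-B-cell receptor. CD81 is a tetraspanin of the B-cell surface, and the adaptors BANK1 and PIK3AP1 (also called BCAP) couple the receptor to further kinases. Cd79a is a long-known target gene of EBF1, which binds its promoter.

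The promoter of Cd79a is shown because it holds the EBF1 site by which the factor is known at this gene, and those of Bank1 and Pik3ap1 because these 2 adaptors had the largest decreases among the 7 genes. Each run is the 250 bases before the start of the gene, 5′ to 3′ on the strand of the gene, from RefSeq (GRCm38.p6), at chr7:24897247-24897496 on the plus strand for Cd79a, chr3:136326067-136326316 on the minus strand for Bank1 and chr19:41385103-41385352 on the minus strand for Pik3ap1. Capitals mark the matches to 2 motifs searched on both strands, CAAGGGAAT, the letters of the known Cd79a site, and CCCNNGGG, the palindromic core of the EBF1 motif.
Cd79a: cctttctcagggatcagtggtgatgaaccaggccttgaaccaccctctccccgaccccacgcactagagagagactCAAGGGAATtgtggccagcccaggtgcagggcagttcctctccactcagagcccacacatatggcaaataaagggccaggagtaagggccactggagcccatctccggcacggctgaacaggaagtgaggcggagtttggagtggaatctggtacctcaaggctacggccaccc
Bank1: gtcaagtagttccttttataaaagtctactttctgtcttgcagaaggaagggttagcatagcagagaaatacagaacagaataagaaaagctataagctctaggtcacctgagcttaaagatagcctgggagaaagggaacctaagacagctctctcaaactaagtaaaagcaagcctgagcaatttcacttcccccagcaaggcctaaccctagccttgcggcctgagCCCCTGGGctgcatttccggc
Pik3ap1: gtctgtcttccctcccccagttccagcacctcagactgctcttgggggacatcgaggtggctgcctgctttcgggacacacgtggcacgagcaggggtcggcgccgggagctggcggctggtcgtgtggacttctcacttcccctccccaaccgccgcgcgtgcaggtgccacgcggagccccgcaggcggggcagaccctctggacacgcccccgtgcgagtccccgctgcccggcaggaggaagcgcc
RefSeq promoters were at hand for 5 of the 7 genes, those shown together with Cd81 and Fcrla, and not for Cd79b and Ighm. In the Cd79a promoter CAAGGGAAT lies at bases -174 to -166 from the start, a run found in 74 of 32851 promoters (0.225%); since the letters were taken from this gene, the match is no finding. CCCNNGGG was found in 3882 promoters (11.8%), among them that of Bank1 at -21 to -14 and that of Cd81 at -219 to -212 and -68 to -61. The windows of Pik3ap1 and Fcrla hold neither set of letters. The arrays measured transcript, not binding at these sites.

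The probes that span a splice junction of their gene are shown because each reads a spliced transcript, together with the 2 probes of the mu constant region that the results below turn on. They are in the order Cd79a (chr7:25684353-25684610, plus strand, mm9), Bank1 probe 2 (chr3:135766871-135876831, minus strand), Pik3ap1 probe 2 (chr19:41356478-41357609, minus strand) and mu constant region probes 1 (chr12:114659630-114659689) and 2 (chr12:114659100-114659159), both on the minus strand. Each probe has 60 bases, while the first 3 cover 258, 109961 and 1132 bases of the genome.
Cd79a probe: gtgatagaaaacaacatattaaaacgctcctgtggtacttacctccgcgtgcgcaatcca
Bank1 probe 2: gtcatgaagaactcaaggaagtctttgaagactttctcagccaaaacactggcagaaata
Pik3ap1 probe 2: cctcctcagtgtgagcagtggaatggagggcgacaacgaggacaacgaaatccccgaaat
Mu constant region probe 1: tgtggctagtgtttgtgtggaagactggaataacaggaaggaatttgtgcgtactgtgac
Mu constant region probe 2: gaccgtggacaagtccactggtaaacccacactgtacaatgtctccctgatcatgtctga

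Levels are log2 spot signals relative to the 75th percentile of the same array, and they are compared between arrays for one probe, not between probes. Of the 11 probes, 10 entered the test, and these were well above background on every one of the 9 arrays. A probe passed at an adjusted p under 0.05 and was called if it also changed at least 2-fold (limma over 22355 probes, two-sided, Benjamini-Hochberg adjustment). Since Mock arrays had slides and a day of scanning of their own, the replaced EBF1 cannot be told apart from slide, scan day, sorting, transduction or the time since tamoxifen in any comparison with Mock. Scaling each array to its median in place of its 75th percentile moved the median change of all probes by 0.55 (EBF1ΔC) and 0.70 (EBF1wt) against Mock, and the members' changes moved with it. EBF1ΔC and EBF1wt shared 2 slides, and the differences within these are given where a result rests on them. EBF1wt replicate 2 had the lowest array weight (0.419); EBF1ΔC replicate 3, which shared its slide, had 0.521 and Mock replicate 1 had 0.606, against 1.25 to 1.60 for the other arrays. All 6 pro-B markers (Pax5, Vpreb1, Igll1, Il7r, Rag1, Dntt) were well above background on every array.

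Transcripts of the receptor's signalling chains rose with either form of EBF1. Cd79b, the beta signalling chain, had 7.75, 7.60 and 7.57 in EBF1ΔC, 7.68, 7.73 and 7.86 in EBF1wt and 6.68, 6.69 and 6.68 in Mock arrays. All EBF1 arrays lay above all Mock arrays, and the 2 EBF1 groups overlapped. The means were 7.64 ± 0.10 in EBF1ΔC, 7.76 ± 0.09 in EBF1wt and 6.68 ± 0.01 in Mock (SD, n = 3 each), at chr11:106172780-106172839 (mm9). Cd79b was called 2.11-fold higher in EBF1wt than in Mock (log2 change 1.08, SE 0.0834, adjusted p = 1.61e-05, limma). In EBF1ΔC it rose 1.94-fold over Mock (log2 change 0.96, adjusted p = 3.06e-05), just short of the 2-fold minimum. The EBF1wt increase also fell short of 2-fold, still at an adjusted p under 0.05, with normexp background correction (0.73) and quantile normalization (0.76). In bulk RNA, fewer cells of a type and less RNA per cell cannot be told apart. Between EBF1ΔC and EBF1wt the change was -0.12 (95% interval -0.31 to 0.07, adjusted p = 0.467), so the interval leaves out a 2-fold difference in either direction.

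Cd79a, the alpha signalling chain, had 2.73, 2.71 and 2.80 in EBF1ΔC, 2.75, 2.40 and 2.60 in EBF1wt and 2.12, 1.43 and 1.88 in Mock arrays. Its 3 Mock arrays spread widest, Mock replicate 2 being lowest, but all lay below every EBF1 array. Cd79a rose 1.91-fold over Mock in EBF1ΔC (log2 change 0.94, SE 0.169, adjusted p = 0.00144, limma) and 1.71-fold in EBF1wt (0.78, adjusted p = 0.00368). The EBF1ΔC change was called at 1.09 without Mock replicate 1, at 1.00 with array weights and at 1.48 with median scaling, which also made the EBF1wt change a call (1.48). EBF1ΔC and EBF1wt overlapped, with a change of 0.16 (interval -0.23 to 0.55, adjusted p = 0.643). The within-array difference between Cd79a and Cd79b was -4.90 ± 0.13 in EBF1ΔC, -5.18 ± 0.21 in EBF1wt and -4.87 ± 0.36 in Mock (SD, n = 3), and no pair of groups parted (exact permutation p from 0.2 to 1.0, two-sided, where 3 against 3 arrays allow no p below 0.1).

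**Figure D1:**
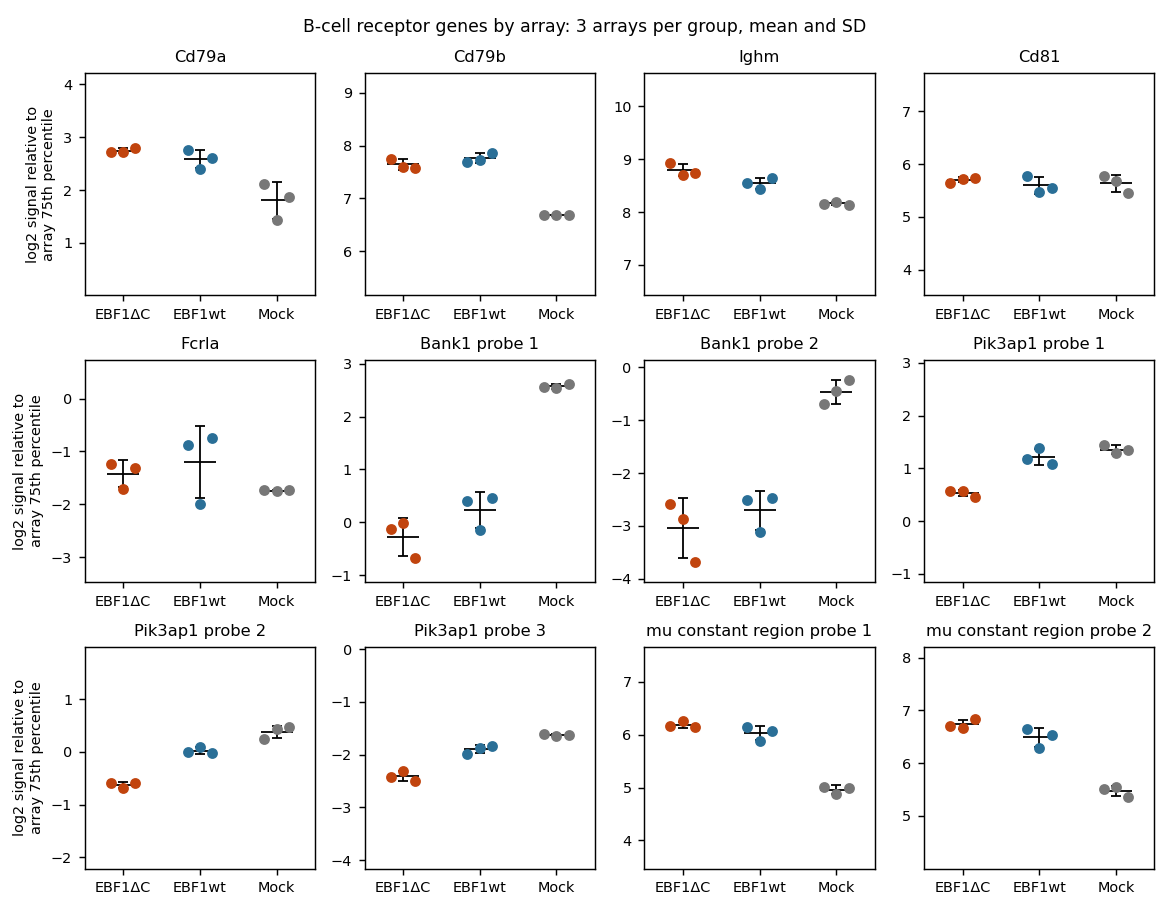
Log2 signal relative to the 75th percentile of the array (vertical axis, each panel spanning the same range) for each tested probe in EBF1ΔC, EBF1wt and Mock. Points are arrays, bars the mean and SD of 3 arrays. The Mock mean is lowest for Cd79a, Cd79b and the mu probes. It is highest for Bank1 and Pik3ap1, at 2.58 and 1.36 for the first probe of each. For Pik3ap1 probe 1 the Mock and EBF1wt arrays overlap.

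The mu heavy chain rose in both EBF1 groups, by an amount that differed between probes. The Ighm probe, designed on a cDNA clone (chr12:114656861-114656920, mm9), had 8.92, 8.71 and 8.74 in EBF1ΔC, 8.55, 8.44 and 8.64 in EBF1wt and 8.16, 8.19 and 8.14 in Mock arrays. The 3 groups did not overlap, EBF1ΔC being highest and Mock lowest. The increase over Mock was 1.54-fold in EBF1ΔC (log2 change 0.63, SE 0.0894, adjusted p = 0.000403, limma) and 1.30-fold in EBF1wt (0.38, adjusted p = 0.00536); the EBF1wt increase missed the threshold with normexp background correction and in the authors' values (adjusted p = 0.0610 and 0.0646), while median scaling made both increases calls, at 1.17 in EBF1ΔC and 1.08 in EBF1wt. EBF1ΔC exceeded EBF1wt by 0.25, an amount that did not pass (adjusted p = 0.161), with 0.30 and 0.28 within the shared slides.

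Another pair of probes, which the files describe as immunoglobulin heavy constant mu but name by an Ensembl transcript, fall outside the rule and were looked at after the values of the Ighm probe were known. They lie 2769 and 2239 bases above the Ighm probe in mm9 coordinates, towards the 5′ end of this minus-strand gene. Probe 1, printed as 10 spots per array, had 6.16, 6.26 and 6.16 in EBF1ΔC, 6.15, 5.89 and 6.07 in EBF1wt and between 4.87 and 5.02 in the 3 Mock arrays. Probe 2 had 6.69, 6.67 and 6.84 in EBF1ΔC, 6.65, 6.29 and 6.53 in EBF1wt and 5.50, 5.54 and 5.36 in Mock arrays. Both were called, at 2.34-fold and 2.40-fold over Mock in EBF1ΔC (adjusted p = 1.49e-05 and 2.98e-05, limma) and 2.11-fold and 2.03-fold in EBF1wt (adjusted p = 2.78e-05 and 8.43e-05). Quantile normalization left all 4 of these changes short of 2-fold (0.76 to 0.99), as did normexp and the authors' values for all but probe 2 in EBF1ΔC, and probe 2 in EBF1wt was short of it without Mock replicate 3 (0.97) or EBF1wt replicate 1 (0.94). The signal of the Ighm probe minus that of constant region probe 1 on the same array was 2.60 ± 0.15 in EBF1ΔC, 2.51 ± 0.10 in EBF1wt and 3.20 ± 0.11 in Mock (SD, n = 3). Each EBF1 group lay below Mock without overlap, the exact permutation p of 0.1 being the smallest that 3 against 3 arrays allow, and against constant region probe 2 the difference fell by 0.64 in both EBF1 groups. The signals of these probes of 1 heavy-chain locus thus did not change equally. The Ighm probe was much brighter (8.14 to 8.92 over the 9 arrays) than the other 2 (4.87 to 6.84). Whether its signal still rose in proportion to transcript at that brightness was not tested, so unequal transcript changes are not concluded. Which mu transcripts each probe reads was not tested.

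Cd81, which encodes a tetraspanin of the cell surface, did not pass in any comparison. It had 5.65, 5.72 and 5.73 in EBF1ΔC, 5.78, 5.47 and 5.54 in EBF1wt and 5.78, 5.68 and 5.46 in Mock arrays (chr7:150253737-150253796, mm9). All groups overlapped. The changes were 0.10 between EBF1ΔC and EBF1wt (interval -0.15 to 0.36), 0.06 between EBF1ΔC and Mock (-0.19 to 0.32) and -0.04 between EBF1wt and Mock (-0.30 to 0.22), with adjusted p of 0.653, 0.642 and 0.760 (limma). Median scaling moved the changes against Mock to 0.61 in EBF1ΔC and 0.66 in EBF1wt, both of which passed and both of which are close to the shift of all probes under that scaling, while quantile normalization gave -0.28 in EBF1wt (adjusted p = 0.0449).

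Fcrla encodes an Fc receptor-like protein that in human B cells stays inside the cell and binds immunoglobulin. Its probe (chr1:172848103-172848162, mm9) had -1.24, -1.71 and -1.31 in EBF1ΔC, -0.88, -1.99 and -0.75 in EBF1wt and -1.74, -1.75 and -1.73 in Mock arrays. EBF1wt replicate 2 was the lowest of all 9 arrays, while the other EBF1wt arrays were the highest. No comparison passed: the change was -0.21 between EBF1ΔC and EBF1wt (interval -0.89 to 0.46, adjusted p = 0.734), 0.32 between EBF1ΔC and Mock (-0.35 to 1.00, adjusted p = 0.363) and 0.54 between EBF1wt and Mock (-0.14 to 1.21, adjusted p = 0.138). Without EBF1wt replicate 2 the change between EBF1wt and Mock was 0.93 and passed (adjusted p = 0.000988), and it also passed under 5 of the other alternatives. Between EBF1ΔC and Mock it passed with normexp (0.42, adjusted p = 0.0485) and median scaling (0.87, adjusted p = 0.0102). The shared slides disagreed on EBF1ΔC against EBF1wt, with 0.68 on one and -0.49 on the other.

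Bank1, the scaffold with ankyrin repeats that binds LYN in human B cells, fell furthest of the 7 genes. Bank1 probe 1 (chr3:135716867-135716926, mm9) had -0.12, -0.02 and -0.68 in EBF1ΔC, 0.40, -0.15 and 0.45 in EBF1wt and 2.56, 2.54 and 2.62 in Mock arrays. Probe 2, the junction probe shown above, had -2.58, -2.88 and -3.68 in EBF1ΔC, -2.51, -3.12 and -2.47 in EBF1wt and -0.70, -0.44 and -0.24 in Mock arrays. By both probes every EBF1 array lay below every Mock array. Against Mock, probe 1 was 7.22-fold lower in EBF1ΔC (log2 change -2.85, SE 0.205, adjusted p = 1.17e-05, limma) and 5.07-fold lower in EBF1wt (-2.34, adjusted p = 3.00e-05). Probe 2 was 6.00-fold lower in EBF1ΔC (-2.59, adjusted p = 0.000114) and 4.74-fold lower in EBF1wt (-2.24, adjusted p = 0.000234). The size depended on the background correction, as normexp and the authors' values gave smaller changes for probe 2, down to -1.24 in EBF1ΔC and -1.11 in EBF1wt, still called.

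Between EBF1ΔC and EBF1wt, the Bank1 changes were -0.51 by probe 1 (interval -0.98 to -0.04, adjusted p = 0.199) and -0.34 by probe 2 (-1.01 to 0.32, adjusted p = 0.555), and neither passed. The values overlapped by both probes, and the differences within the shared slides were -0.53 and -0.57 by probe 1 and -0.56 and -0.11 by probe 2. Bank1 probe 3, designed on a cDNA clone of aorta and vein (chr3:135874089-135874148, mm9), lay at background on all 9 arrays and was not tested.

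Pik3ap1, the adaptor that links the receptor to PI3-kinase, was the one member whose probes passed between the 2 forms of EBF1. Pik3ap1 probe 1 (chr19:41348075-41348134, mm9) had 0.58, 0.57 and 0.46 in EBF1ΔC, 1.18, 1.38 and 1.09 in EBF1wt and 1.44, 1.29 and 1.34 in Mock arrays. Probe 2, the junction probe, had -0.59, -0.69 and -0.59 in EBF1ΔC, -0.0038, 0.091 and -0.027 in EBF1wt and 0.25, 0.43 and 0.46 in Mock arrays. Probe 3 (chr19:41377001-41377060) had -2.41, -2.31 and -2.51 in EBF1ΔC, -1.98, -1.87 and -1.84 in EBF1wt and -1.62, -1.65 and -1.63 in Mock arrays. By all 3 probes the EBF1ΔC arrays were lowest and overlapped neither other group.

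Pik3ap1 fell by 0.68 in EBF1ΔC relative to EBF1wt by probe 1 (SE 0.0967, adjusted p = 0.00692, limma), which is 1.61-fold lower. Probe 2 gave -0.65 (1.56-fold lower, adjusted p = 0.00495) and probe 3 -0.52 (1.43-fold lower, adjusted p = 0.0103). The 3 probes share the gene and the arrays and are not independent. The differences within the shared slides were -0.92 and -0.51 by probe 1, -0.68 and -0.56 by probe 2 and -0.64 and -0.58 by probe 3. With slide as a fixed block, which rests on those 2 slides, the changes were -0.72, -0.62 and -0.61 but did not pass (adjusted p = 0.191, 0.174 and 0.151); probe 3 also missed the threshold under median scaling (-0.67, adjusted p = 0.0952), normexp (-0.29, adjusted p = 0.0720) and the authors' values (-0.30, adjusted p = 0.0618).

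**Figure D2:**
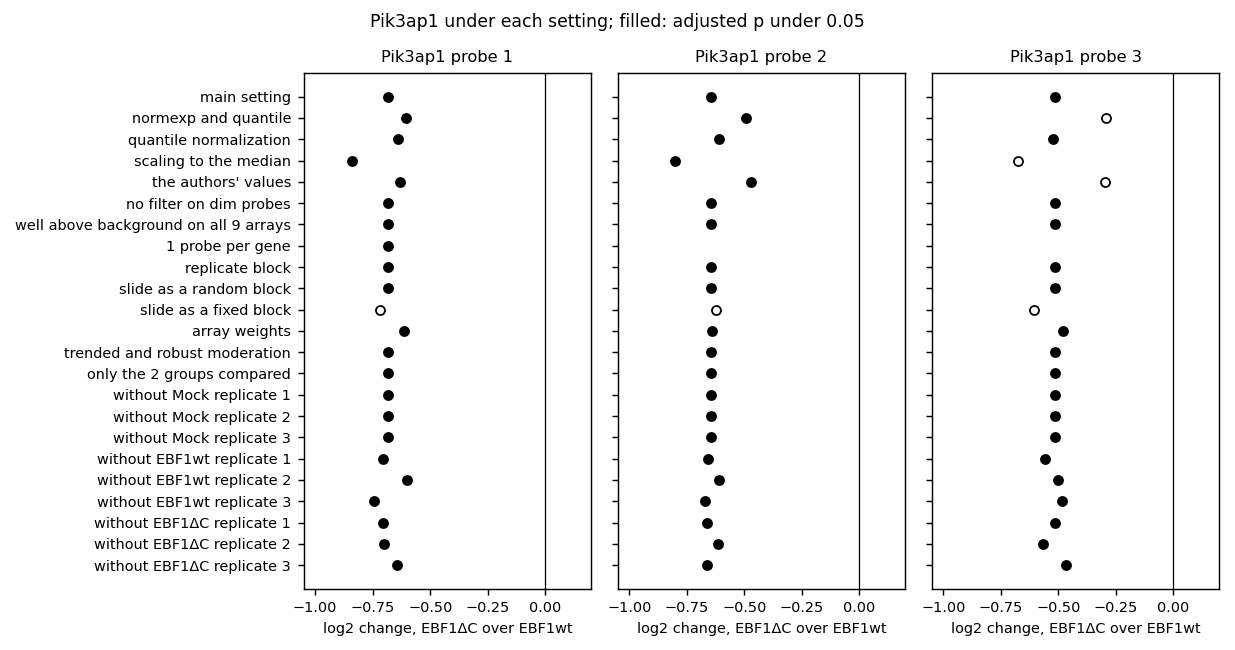
Log2 change of Pik3ap1 in EBF1ΔC over EBF1wt (horizontal axis) by each of its 3 probes under the main setting and each alternative (rows; probes 2 and 3 have no value where 1 probe stood for a gene). Filled points have an adjusted p under 0.05; every point is below 0, from -0.84 to -0.60 for probe 1.

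Against Mock, the log2 changes of Pik3ap1 in EBF1ΔC were -0.82 (probe 1, adjusted p = 0.000143, limma), -1.01 (probe 2, 2.01-fold lower and called, adjusted p = 2.72e-05) and -0.78 (probe 3, adjusted p = 7.22e-05). Probe 2 lay so close to 2-fold that the call, not the adjusted p, was lost without Mock replicate 2 (-0.98), Mock replicate 3 (-0.96) or EBF1ΔC replicate 2 (-0.97), with normexp (-0.86), in the authors' values (-0.84) and under median scaling (-0.46). For EBF1wt against Mock the values were -0.14 by probe 1 (adjusted p = 0.225), -0.36 by probe 2 (adjusted p = 0.00559) and -0.27 by probe 3 (adjusted p = 0.0180). Those signs were not stable, since median scaling gave 0.56, 0.34 and 0.44, and probe 3 missed the threshold without EBF1wt replicate 1 (-0.22, adjusted p = 0.0676), so no direction is drawn for EBF1wt. Median scaling also moved the EBF1ΔC changes of probes 1 and 3 against Mock to -0.28 and -0.23, neither of which passed, and probe 3 gave -0.088 with normexp and -0.070 in the authors' values.

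Counted over the 10 tested probes, 3 passed between EBF1ΔC and EBF1wt, all lower and all of Pik3ap1, against 5.59% of all tested probes in either direction and, by direction, 2.73% higher and 2.85% lower. None reached 2-fold by limma's adjusted p (1.99% of all probes did, 1.14% higher and 0.854% lower), and 5 of the 10 had an unadjusted p under 0.05, as did 21.2% of all probes. Between EBF1ΔC and Mock 8 passed, 3 higher and 5 lower (64.7% of all probes, 33.9% higher and 30.8% lower). Of these, 3 were called, all lower (22.3% of all probes, 6.04% higher and 16.3% lower). Between EBF1wt and Mock 7 passed, 3 higher and 4 lower (66.9% of all probes, 35.3% higher and 31.6% lower). Of these, 1 was called higher and 2 lower (23.5%, as 6.09% higher and 17.4% lower). The shares against Mock are close to those of all probes. The groups did not overlap for 4 probes between EBF1ΔC and EBF1wt (27.5% of all probes), 9 between EBF1ΔC and Mock (71.9%) and 7 between EBF1wt and Mock (72.7%). The median change of the 10 probes was -0.28, -0.36 and -0.09 in these comparisons, beside -0.00088, 0.038 and 0.044 over all probes. Pik3ap1 counts 3 times and Bank1 2 times among the 10; with 1 probe for each of the 7 genes the medians were -0.12, 0.32 and 0.38, so their sign against Mock turned. The comparisons with Mock share the Mock arrays.

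**Figure D3:**
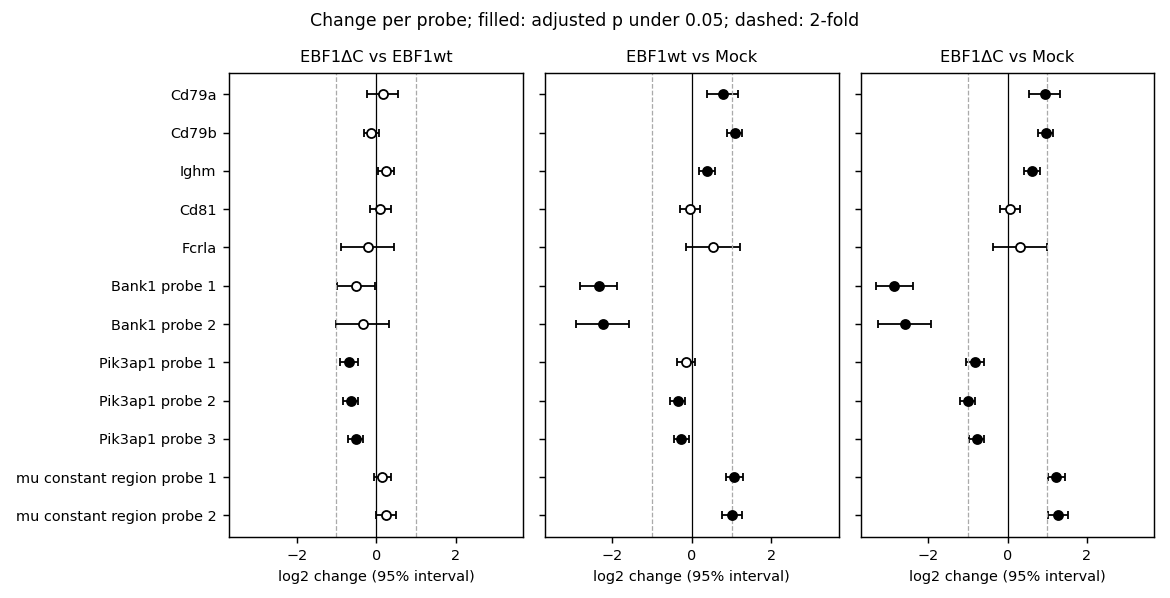
Log2 change (horizontal axis) with its 95% interval for each tested probe in the 3 comparisons. Filled points have an adjusted p under 0.05 and dashed lines mark 2-fold; in EBF1ΔC against EBF1wt the 3 Pik3ap1 probes are the filled ones, and against Mock both Bank1 probes lie furthest left, at -2.85 to -2.24.

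**Figure D4:**
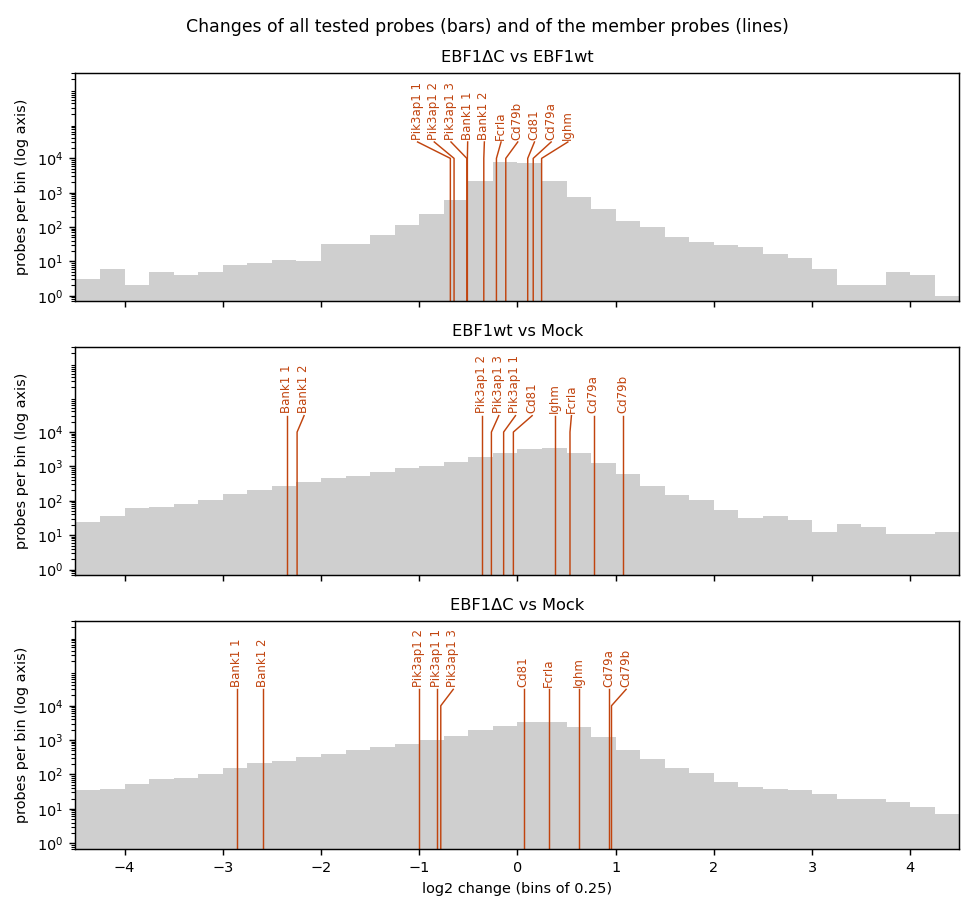
Number of tested probes per bin of log2 change (bars, log axis, 22355 probes in each panel, with changes beyond the plotted range not drawn) and the 10 member probes (lines). Between EBF1ΔC and EBF1wt the first Pik3ap1 probe lies where 2.90% of all probes are lower, and against Mock the first Bank1 probe where 2.57% (EBF1ΔC) and 4.63% (EBF1wt) are lower.

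The other genes of the receptor pathway were counted in 7 lists, with 1 probe per gene. Each count against Mock is given beside the share of all tested probes that passed in the same direction under the main setting. Between EBF1ΔC and EBF1wt that share was 2.73% higher and 2.85% lower, for every list. No such share is given for counts under median scaling, which moved the changes of all probes against Mock up. The calls over all probes were then 5520 higher and 2189 lower in EBF1ΔC, and 7925 and 1978 in EBF1wt. Of the immunoglobulin and surrogate chains, 4 of 8 listed genes were on the array under these names, and all 4 rose over Mock in EBF1ΔC (33.9% of all probes did) and in EBF1wt (35.3%). Igll1 and Vpreb1, the lambda5 and VpreB parts of the surrogate light chain, were 5.89 and 3.59 higher in EBF1ΔC and 6.97 and 3.50 higher in EBF1wt, and Vpreb2, a second VpreB gene, 4.39 and 4.69 (log2 changes, all called). Igll1 was also called between the 2 forms, falling by 1.08 in EBF1ΔC relative to EBF1wt (adjusted p = 0.00286, limma); with slide as a fixed block it changed by -1.07 and did not pass (adjusted p = 0.106). The list's median change was 3.99 in EBF1ΔC and 4.10 in EBF1wt over Mock, beside 0.038 and 0.044 over all probes. Vpreb3, a VpreB relative, was the other.

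Proximal kinases and adaptors changed in both directions against Mock, with 7 higher and 6 lower of 19 tested in each EBF1 group, close to the share of all probes (33.9% higher and 30.8% lower in EBF1ΔC, 35.3% and 31.6% in EBF1wt). Under median scaling, which moved the changes of all probes against Mock up, the split was 10 to 3 in EBF1ΔC and 13 to 3 in EBF1wt. Lat2, a membrane adaptor, had log2 changes of -5.64 in EBF1ΔC and -5.84 in EBF1wt. Vav2, a guanine nucleotide exchange factor, was 1.23 and 1.52 higher. Blk and Rasgrp3, counted among the falls and named after their values were seen, were above background on all 3 Mock arrays and no EBF1 array. They entered the test through Mock alone, so their falls rest on EBF1 signals at background. Between EBF1ΔC and EBF1wt 1 of the 19 passed, Plcg2, the phospholipase downstream of the receptor, named after its value was seen. Plcg2 fell to 5.36 ± 0.06 in EBF1ΔC, against 6.03 ± 0.04 in EBF1wt (SD, n = 3; change -0.66, adjusted p = 0.00427, limma), and passed in 21 of 22 alternatives, the exception being slide as a fixed block (-0.61, adjusted p = 0.199).

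In the PI3-kinase list, to which PIK3AP1 connects, none of 15 tested genes passed in limma between EBF1ΔC and EBF1wt; 2 had an unadjusted p under 0.05, and 1 passed with normexp and in the authors' values. Against Mock 7 rose and 4 fell in each EBF1 group. Of all probes, 33.9% passed higher and 30.8% lower in EBF1ΔC, and 35.3% and 31.6% in EBF1wt (64.7% and 66.9% in either direction). The split was 11 and 2 in EBF1ΔC, and 11 and 1 in EBF1wt, with median scaling. With quantile normalization it was 4 and 4 in each. Plekha1, counted among the falls and named after its value was seen, was above background on all 3 Mock arrays and no EBF1 array. It entered the test through Mock alone, so its fall rests on EBF1 signals at background. Foxo1, the transcription factor restrained by this pathway, was 1.42 higher in EBF1ΔC and 1.37 higher in EBF1wt. Plekha2, a phosphoinositide-binding adaptor, was 1.34 and 1.22 higher. Pik3r5, a regulatory subunit, changed by -1.01 in EBF1ΔC and -0.96 in EBF1wt, and Inppl1, a lipid phosphatase, by -0.73 in EBF1ΔC and -1.01 in EBF1wt; all 4 changes passed and the 2-fold minimum alone parted them.

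Of the tetraspanins and related membrane proteins, 3 of 9 tested genes passed between EBF1ΔC and EBF1wt, all higher (2.73% of all probes were); with normexp and in the authors' values 3 passed higher and 1 lower. Ifitm3, an interferon-induced membrane protein, was called 1.49 higher (adjusted p = 0.00598, limma), at -2.48 ± 0.23 in EBF1ΔC and -3.97 ± 0.26 in EBF1wt (SD, n = 3). The change was 0.64 with normexp and 0.60 in the authors' values, short of 2-fold, and did not pass with slide as a fixed block (1.42, adjusted p = 0.152). Named after their values were seen, the tetraspanins Cd82 (0.60, adjusted p = 0.0294) and Cd151 (0.46, adjusted p = 0.0156) rose; these passed in 13 and 15 of 22 alternatives, and under median scaling 1 gene of the list passed, higher. Against Mock 2 rose and 2 fell in EBF1ΔC (33.9% and 30.8% of all probes), and 4 rose and 4 fell in EBF1wt (35.3% and 31.6%; 4 and 2 in EBF1ΔC, and 5 and 3 in EBF1wt, with median scaling). Cr2, a complement receptor, changed by -2.62 in EBF1ΔC and -1.66 in EBF1wt relative to Mock, and Cd151 was 1.12 higher in EBF1ΔC than in Mock. Ifitm1, a relative of Ifitm3, was called lower, at 0.468 times its Mock signal in EBF1ΔC and 0.456 times in EBF1wt, and Ifitm3 was called lower in EBF1wt than in Mock (log2 change -1.84).

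The inhibitory receptors and phosphatases mostly fell relative to Mock, 6 of 9 tested in each EBF1 group (30.8% of all probes in EBF1ΔC and 31.6% in EBF1wt), with 1 higher in EBF1wt; under median scaling 5 fell and 2 rose in EBF1ΔC, and 4 fell and 3 rose in EBF1wt. Cd22, a sialic acid-binding inhibitor of the receptor, had log2 changes of -3.65 in EBF1ΔC and -2.68 in EBF1wt, and Cd5 of -4.07 and -3.51. Ptpn6, the SHP-1 phosphatase, was called lower in both EBF1ΔC (-1.20) and EBF1wt (-1.15). Pirb, counted among the falls and named after its value was seen, was above background on all 3 Mock arrays, 2 EBF1ΔC arrays and no EBF1wt array. It entered the test through Mock alone, so its fall rests on EBF1 signals at or near background. Cd72, another inhibitory receptor, changed by -3.59 in EBF1ΔC relative to Mock and by -3.74 relative to EBF1wt (adjusted p = 3.02e-05, limma). The other gene that passed between the 2 forms was Ceacam1 (-0.39, adjusted p = 0.0470, in 6 of 22 alternatives), named after its value was seen.

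Among Fc receptor and Fc receptor-like genes, the relatives of Fcrla, none of 6 tested passed in limma between EBF1ΔC and EBF1wt; 1 had an unadjusted p under 0.05, and 1 passed with normexp and in the authors' values. Relative to Mock, 4 fell and 1 rose in EBF1ΔC (30.8% and 33.9% of all probes), and 5 fell in EBF1wt (31.6% of all probes; 4 fell and 1 rose with median scaling). Fcrl1 had log2 changes of -2.01 in EBF1ΔC and -1.87 in EBF1wt, and Fcmr, the receptor for IgM, of -3.56 and -3.59. Fcrl5 and Fcer2a, named after their values were seen, were above background on no EBF1 array and on all 3 Mock arrays. Fcrls, also named afterwards, was above background on all 3 Mock arrays, 1 EBF1ΔC array and no EBF1wt array. These genes entered the test through Mock alone, which favoured a fall. Their changes against Mock, and the counts and medians that include them, rest on EBF1 signals at background.

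The list of factors known at the Cd79a and Cd79b promoters also holds Id2 and Id3, inhibitors of DNA binding that are not themselves such factors. Of its 17 genes, 8 rose and 5 fell over Mock in each EBF1 group. The shares of all probes were 33.9% and 30.8% in EBF1ΔC and 35.3% and 31.6% in EBF1wt. With median scaling 12 rose and 2 fell in EBF1ΔC, and 12 and 1 in EBF1wt. Ebf1 itself averaged 3.80 ± 0.06 in EBF1ΔC, 3.06 ± 0.17 in EBF1wt and 1.45 ± 0.28 in Mock, and whether its probe reads the vector's transcript was not tested. Lef1 was 1.86 higher in EBF1ΔC and 1.97 higher in EBF1wt, and Ikzf1, which encodes Ikaros, changed by -1.71 and -1.87. Pax5, a partner of EBF1 at Cd79a, did not pass (0.08 in EBF1ΔC and 0.25 in EBF1wt over Mock). Between EBF1ΔC and EBF1wt Ebf1 (0.74), the inhibitor of DNA binding Id2 (0.99) and Pou2f2, which encodes OCT2 (-0.56), passed; they were named after their values were seen and passed in 12, 20 and 5 of 22 alternatives. None of the 17 passed between the 2 forms under median scaling, against 3 in the limma fit above.

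**Figure D5:**
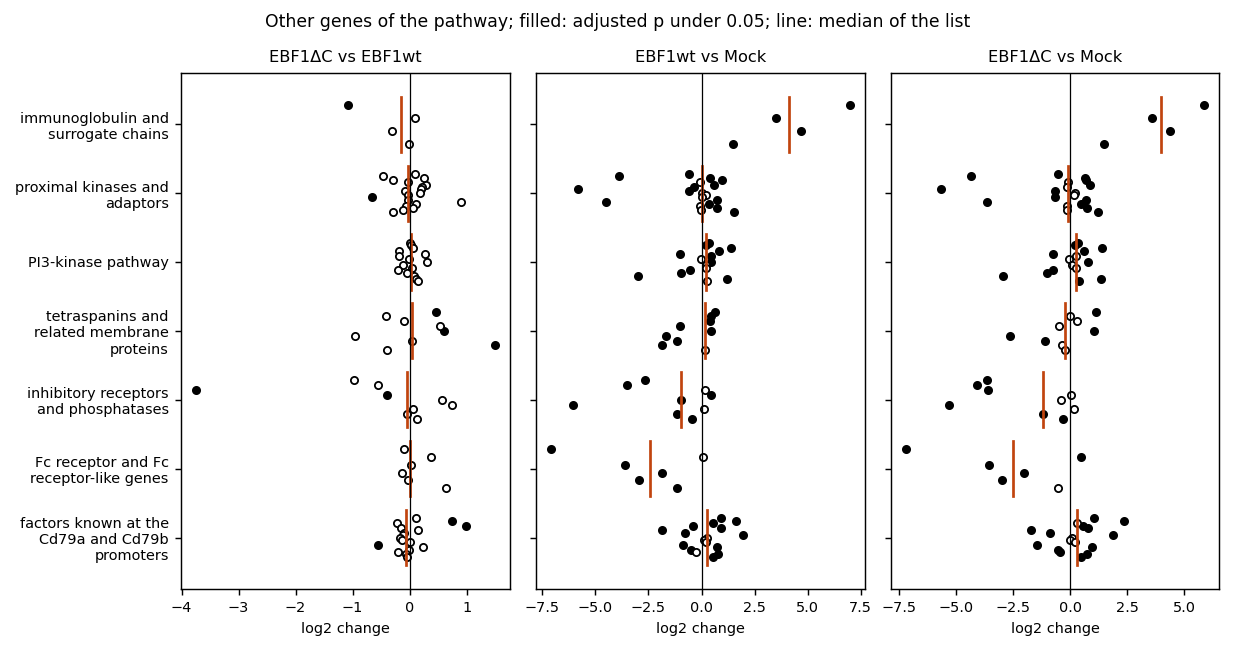
Log2 change (horizontal axis, its range differing between panels) of each tested gene of the 7 lists in the 3 comparisons; filled points have an adjusted p under 0.05 and vertical lines are list medians. The surrogate chains stand to the right and the Fc receptor genes mostly to the left against Mock, with medians of 3.99 and -2.49 in EBF1ΔC. The second of these is -1.16 with normexp and -1.15 in the authors' values. Fcrl5, Fcrls and Fcer2a, which it includes, entered the test through Mock alone.

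Markers of other cells moved beside these genes, and their part in the results was not tested. On the log2 scale, the summed signal of 4 mature B-cell markers ran from 2.00 to 2.66 in EBF1ΔC, 2.02 to 3.26 in EBF1wt and 4.83 to 5.08 in Mock arrays, and Fcer2a among them was above background in Mock alone. Cd22 carries most of the Mock sum (mean 4.73), and Ms4a1 ran the other way in EBF1ΔC (1.29, against 0.34 in EBF1wt and 0.86 in Mock). The 4 plasma cell markers summed to 0.60 to 1.01 in EBF1ΔC, 1.06 to 1.27 in EBF1wt and 3.11 to 3.19 in Mock, with Prdm1 above background on no array. Jchain alone was far lower than Mock (-4.26 in EBF1ΔC and -2.97 in EBF1wt, against 2.78 in Mock), while Sdc1 was higher (-1.004 in EBF1ΔC and -0.712 in EBF1wt, against -2.16 in Mock). The sum of the 6 pro-B markers ran from 8.84 to 8.96 in EBF1ΔC, 8.88 to 9.01 in EBF1wt and 5.24 to 5.42 in Mock. That sum is mostly Vpreb1 (8.71 in EBF1ΔC, 8.62 in EBF1wt and 5.12 in Mock); Dntt averaged 2.02 in EBF1ΔC, 0.52 in EBF1wt and 1.14 in Mock, and Pax5 -1.79, -1.62 and -1.87 in these groups. The 4 myeloid markers summed to 2.98 to 3.95 in EBF1ΔC, -1.10 to 1.43 in EBF1wt and -1.47 to -1.03 in Mock. That sum is mostly Lyz2 (3.59 in EBF1ΔC, 0.49 in EBF1wt and -1.58 in Mock), alone above background on all arrays of every group. Itgam (-6.67, -7.47 and -4.98 in these groups) and Csf1r (-6.31, -5.98 and -5.33) were highest in Mock instead. Each was above background on 2 Mock arrays and no EBF1 array, and Cebpa on no array. The 4 T-cell markers summed to between -3.71 and -3.62 in EBF1ΔC, -3.84 and -3.36 in EBF1wt and -3.13 and -2.98 in Mock, with Cd4 and Cd8a above background on no array, and the 2 erythroid ones (Hba-a1 and Klf1) to between -4.62 and -4.16 in EBF1ΔC, -4.44 and -3.77 in EBF1wt and -3.23 and -2.92 in Mock.

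The genes whose profile over the 9 arrays came closest to each member were found by the root mean square difference of centred log2 values, among 10711 genes above background on all arrays. The closest to Cd79b were Mthfd1l (0.05) and Brd8 (0.07), and those to Cd79a were Cdk5rap2 (0.09) and Nucb1 (0.12). Ighm was closest to Dusp6 and Tmem268 (0.05 each), and Cd81 to Tor4a and Stambp (0.06 each). Pik3ap1 probe 1 was closest to Irf5 (0.07), with a change of -0.66 between EBF1ΔC and EBF1wt, and to Polm (0.10). For Bank1 the nearest were Myo1f (0.16) and Slc15a3 (0.21), and for Fcrla Calhm2 (0.14) and Bglap (0.18), at wider distances. The profiles share the arrays and the 3 groups, so this is a description of likeness and carries no test.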

How the data were processed

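RNA of 9 samples was labelled with Cy3 and read on 1-colour Agilent 4x44K mouse arrays. The values are each spot's processed intensity as deposited, which per the file headers Feature Extraction 10.5.1.1 had background-subtracted and detrended; the submitters' processing notes name version 9.1. The authors' deposited log2 values, whose normalization is not given in the sources used here, served as an alternative. Computed here were log2 intensities minus the 75th percentile of each array, with control spots and outlier spots (73 to 163 per array) left out and spots of a probe averaged; percentiles ran from 384 to 507.7 intensity units, and 50.7% to 56.9% of probes were well above background. No spot was saturated. One linear model with a mean per group, over all 9 arrays, was fitted in limma 3.58.1 (R 4.3.3, statmod 1.5.0), with 6 residual degrees of freedom. It covered the 22355 of 41174 probes that were well above background throughout at least 1 group of 3 arrays. The model was also run on simulated arrays with independent noise and no slide, scan-day or scaling effect, so that check cannot speak to those effects. There it recovered, at an adjusted p under 0.05, 69.5% of 200 changes of 2-fold between EBF1ΔC and EBF1wt.

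Groups came from the sample titles. EBF1wt replicate 3 was kept although tamoxifen stands only in its description and not in its source name. Probes were tested one by one. Members are all probes under the 7 gene names. From each of 7 pathway lists, up to 3 called genes per comparison with the largest change, above background throughout both groups, are named; other names are marked as chosen after their values were seen. Some genes of the lists and marker lists are not reported here and stand in none of their counts. Members and lists were chosen with earlier results of these data known. Alternatives were other background corrections and scalings (normexp with an offset of 50, quantile, median), the authors' values, other filters and thresholds, 1 probe per gene, trended and robust moderation, array weights, a block for replicate number or for slide, the 2 compared groups alone, and each array left out. Probe positions are mm9, as the files give them.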

Additional observations from a re-analysis of the deposited data

How the results depend on the processing

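Under the alternatives, 617 values of member probes kept their direction and their side of the call. A call was gained by 20 and lost by 8, and 16 changed sign, none of these being a called value. The 20 gains include every passing value short of 2-fold, since dropping the fold minimum was counted as an alternative. Other filters, 1 probe per gene, the replicate block and trended and robust moderation left the change itself as it was. So did the 2 groups alone and leaving out an array of the group not compared. In those settings no direction could turn, so the count of 617 was partly fixed in advance. Of Cd81, the change between EBF1ΔC and EBF1wt was -0.053 under median scaling; between EBF1wt and Mock it was 0.66 under median scaling, 0.028 with array weights and, with each array left out, -0.13 to 0.029 (above 0 without Mock replicate 1, and 0.023 without EBF1wt replicate 2); between EBF1ΔC and Mock it was -0.12 with normexp, -0.14 with quantile normalization, -0.11 in the authors' values and -0.026 to 0.13 with each array left out, the lowest being without Mock replicate 3. Fcrla in EBF1ΔC against EBF1wt was 0.095 with slide as a fixed block and -0.60 to 0.012 with each array left out, the highest being without EBF1wt replicate 3. Pik3ap1 in EBF1wt against Mock was 0.56, 0.34 and 0.44 by its 3 probes under median scaling, and 0.20 with normexp and 0.23 in the authors' values by probe 3. Mu constant region probe 1, outside the rule, was -0.0050 in EBF1ΔC against EBF1wt under median scaling.

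Between EBF1ΔC and EBF1wt 445 probes were called, and 178 with normexp, 169 in the authors' values, 289 when above background on all 9 arrays, 93 with slide as a fixed block, 259 with the 2 groups alone and 1249 with no fold minimum. Between EBF1wt and Mock 5252 were called (1362 higher, 3890 lower), and 1809 with normexp, 9903 under median scaling (7925 higher, 1978 lower), 1745 in the authors' values, 3225 when above background on all 9 arrays, 2346 with 1 probe per gene and 14954 with no fold minimum. Between EBF1ΔC and Mock 4987 were called (1351 higher, 3636 lower), and 1870, 7709 (5520 higher, 2189 lower), 1802, 3102, 2186 and 14458 under the same settings. Quantile normalization gave 2057 higher and 2815 lower in EBF1wt and 2009 and 2868 in EBF1ΔC against Mock. Leaving out each array gave 322 to 469, 4835 to 5454 and 4645 to 5209. The cause of these shifts was not tested, apart from fewer probes being tested under the stricter filter and with 1 probe per gene. Replicate numbers did not pair the samples (correlations of same-numbered deviations from -0.14 to 0.14); with the replicate number as a block 375, 5243 and 4968 probes were called. Median scaling shifted all probes by -0.16 between EBF1ΔC and EBF1wt, 0.70 between EBF1wt and Mock and 0.55 between EBF1ΔC and Mock. Bank1 probe 3 lay at background on all 9 arrays. Other dim member probes depended on the background correction. Against Mock, Bank1 probe 2 moved from -2.59 to as little as -1.24 in EBF1ΔC and from -2.24 to -1.11 in EBF1wt. Pik3ap1 probe 3 moved from -0.78 to -0.070 in EBF1ΔC.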
